A study of Mus musculus with 3 samples.

Results

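Chromatin accessibility was examined at 8 genes that mark pyramidal glutamatergic neurons (PGNs) of the cortex and hippocampus, in dopaminergic neurons (DNs), a midbrain cell type in which these genes are not used as identity markers. The 8 genes, *Camk2a*, *Wfs1*, *Cux2*, *Bcl11b*, *Fezf2*, *Tbr1*, *Tle4* and *Emx1*, were chosen by name as known PGN genes, with earlier results of these data known and without a threshold on accessibility, out of 21755 protein-coding genes of GENCODE M21 on the 19 autosomes and the X chromosome. The data were single-nucleus ATAC-seq (snATAC-seq) of the ventral tegmental area (VTA) of male wild-type mice of the strain C57Bl/6Nl, with 1 library at 7 weeks of age and 1 at 9 weeks. In this assay a transposase cuts open chromatin in single nuclei, and the DN nuclei were picked afterwards by clustering. The nuclei of both libraries were combined in 1 list of 55326 accessible peaks, each 500 bp wide, on genome build mm10. No score or read count accompanies the positions, so the depth behind each peak is not known from the list. With 1 pooled list there were no replicates, no spread between replicates could be given and no test was made. A gene without a peak is therefore a gene at which no peak was called, and weak accessibility below the calling threshold was not detectable. Bulk ATAC-seq of mouse embryonic stem cells of the same series was not analysed here.

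Pyramidal neurons are the excitatory projection neurons of the cortex and hippocampus. Their identity is set in the dorsal telencephalon by transcription factors that also divide the cortical layers among themselves, so that deep-layer and upper-layer neurons carry different factors. Accessible chromatin at a gene comprises its promoter, which in CpG-rich genes is open in most tissues, and distal elements, which differ more between cell types. Open chromatin does not show that a gene is transcribed.

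The 8 genes differed widely in DNs. Peaks were counted when they overlapped the gene body or the 20 kb on either side of it by at least 1 bp. *Cux2* had 26 peaks, *Camk2a* had 10, *Wfs1* and *Bcl11b* had 8 each, *Tle4* had 3 and *Tbr1* had 1, whereas *Fezf2* and *Emx1* had none. Of the 8 genes, 6 had at least 1 peak, or 75.0%, close to the 76.6% of all protein-coding genes. The median was 5.5 peaks a gene over the 8 genes and 2 over all genes. Inside the gene body alone, the same 6 genes had a peak, compared with 63.8% of all genes.

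Long genes have more room for peaks, and so each gene was ranked among the 500 protein-coding genes nearest to it in length, by the share of those genes with fewer peaks plus 50% of the share with as many. *Cux2* (193.7 kb long) lay at percentile 97.3, *Wfs1* (23.1 kb) at 88.4, *Camk2a* (62.5 kb) at 88.0 and *Bcl11b* (93.2 kb) at 81.3. *Tle4* (149.9 kb) lay at percentile 36.6, *Tbr1* (11.2 kb) at 31.4, *Fezf2* (6.10 kb) at 20.1 and *Emx1* (17.0 kb) at 10.2. Of the 8 genes, 4 lay above percentile 75, as did 5412 of all 21755 genes, and 2 lay below percentile 25, as did 5955 of all. None of the 8 lay between 36.6 and 81.3, and their median of 58.95 stood beside 50.0 over all genes. This gap was not seen in other windows. In the gene body alone *Wfs1* lay at 48.9 and *Tbr1* at 58.7, with 5 kb on each side *Wfs1* lay at 62.0, *Tbr1* at 45.5 and *Tle4* at 43.1, and with 50 kb *Emx1* lay at 59.3 and *Bcl11b* at 67.7. Of the 500 genes similar in length to *Emx1*, 20.4% also had no peak, and of those similar to *Fezf2*, 40.2%, so that a count of 0 was not rare at their lengths.

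**Figure D1:**
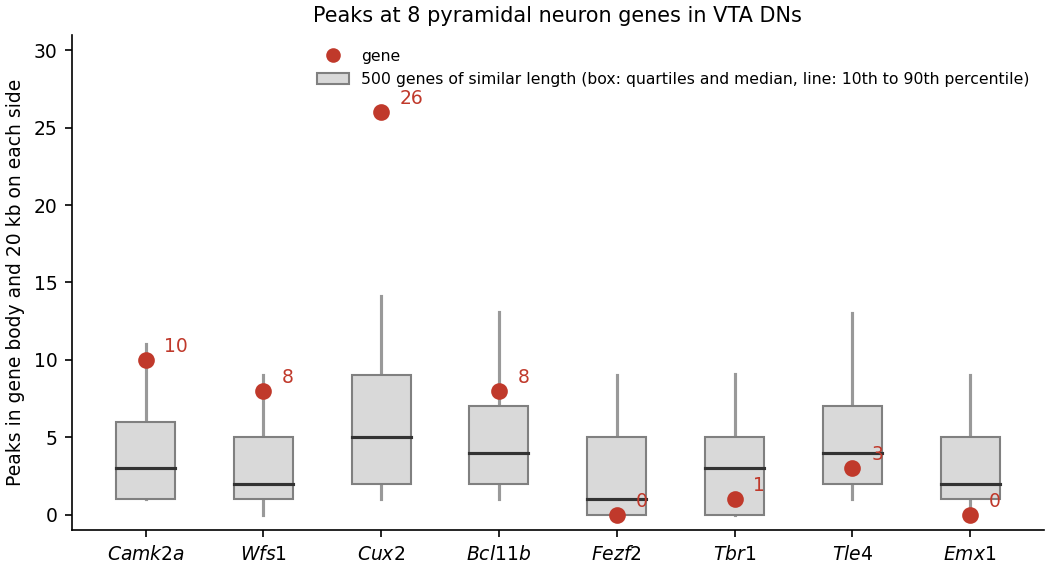
Number of peaks in the gene body and the 20 kb on each side (vertical axis) for the 8 genes (red points, count beside each), with the 500 protein-coding genes nearest in length to each (grey box, quartiles and median; grey line, 10th to 90th percentile). *Cux2*, with 26 peaks, lies above the 90th percentile of its group, while *Fezf2* and *Emx1* lie at 0.

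Of the 56 peaks, 10 lay at a start site of the gene itself (centre within 1 kb of the 5′ end or of any start site in the basic annotation), 17 in its introns, 2 in its exons, 6 in the upstream flank and 21 in the downstream flank. In all, 26 of the 56 peaks overlapped the body of 1 of the 8 genes. A further 9 peaks in the flanks lay inside the body of another protein-coding gene, and 5 lay within 1 kb of the start site of another one. For 16 of the 56 peaks the nearest start site belonged to another protein-coding gene, 13 of them at *Cux2* and 3 at *Camk2a*. Part of the flank counts thus lay at neighbouring genes.

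**Figure D2:**
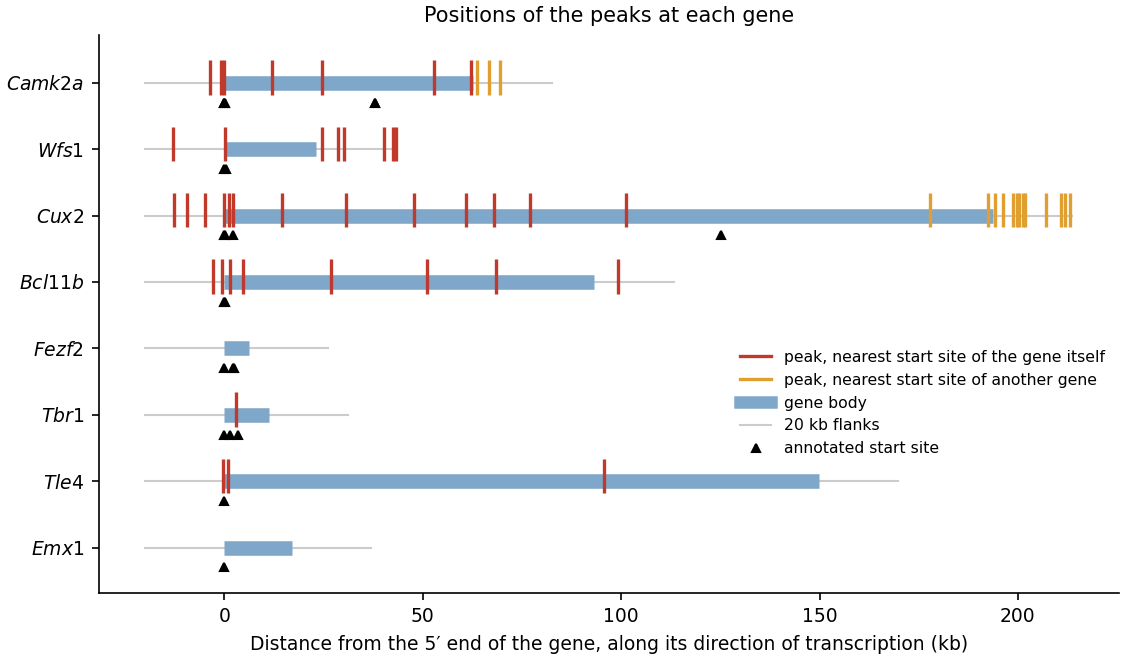
Peaks (vertical bars) along each of the 8 genes, as distance in kb of the peak centre from the 5′ end of the gene in its direction of transcription, with the gene body in blue, the 20 kb flanks in grey and start sites as triangles. Orange bars, 13 at *Cux2* and 3 at *Camk2a*, lie nearer to the start site of another gene, and the rows of *Fezf2* and *Emx1* are empty.

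At start sites the 8 genes divided in another way. A peak centre lay within 1 kb of a start site at 6 of the 8 genes, compared with 56.9% of all genes. With a distance of 500 bp it was 4 of the 8, compared with 55.1% of all genes. A peak covered a start site at 3 of the 8 (37.5%), *Camk2a*, *Wfs1* and *Cux2*, compared with 50.8% of all genes. By the RefSeq annotation, described below, *Tle4* had a covered start site too. Among all genes with a peak within 1 kb, 89.3% had a GENCODE start site covered (11049 of 12378). Among the 6 of these 8 genes with such a peak it was 3 of 6. At *Tle4* the peak ended 12 bp short of the 5′ end, at *Tbr1* 264 bp short of its most downstream start site, and at *Bcl11b* 385 bp short of the 5′ end, so at these genes the peak stood beside the GENCODE start site.

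The CpG content of the promoter was taken into account, because CpG-rich promoters carried most start-site peaks. CpG-rich was defined as a GC content of at least 50% and a ratio of observed to expected CpG of at least 0.6 in the 1 kb around the 5′ end. Of 9739 genes with a CpG-rich 5′ end, 88.9% had a peak within 1 kb of a start site, 81.4% had a start site covered, and 4.32% had no peak in the gene body or within 20 kb. Of the 8 genes, 5 were CpG-rich (*Wfs1*, *Cux2*, *Bcl11b*, *Tle4* and *Emx1*), 4 of these had a peak within 1 kb and 2, *Wfs1* and *Cux2*, had a start site covered. *Emx1*, with a GC content of 62.5% and a ratio of 0.67, was the exception among them. When the genes of similar length were restricted to CpG-rich ones, only 3.60% of the 500 had no peak, and *Emx1* moved from percentile 10.2 to 1.8. The 5′ end of *Fezf2* is not CpG-rich by this definition (43.1% GC, ratio 0.22), but its second start site, 2230 bp downstream, had a GC content of 59.3% and a ratio of 0.79.

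Sequences at the start sites of all but *Camk2a* are printed here, 5′ to 3′ on the strand of the gene, with every CpG in capitals. They come from GRCm38.p6, whose chromosomes are those of mm10, and hold no UTR of the gene. For *Wfs1* the 122 bases from the start site to the end of its peak (chr5:36989206-36989327, minus strand) hold 6 CpGs. For *Tle4* the 250 bases upstream of the RefSeq start site (chr19:14598184-14598433, minus strand) lie inside its peak and hold 24 CpGs. For *Cux2* the 250 bases upstream of the 5′ end (chr5:122050103-122050352, minus strand) lie inside its peak and hold 38 CpGs. For *Bcl11b* and *Tbr1* the central 250 bases of the start-site peak are shown (chr12:108004112-108004361, minus strand, 20 CpGs, and chr2:61805624-61805873, plus strand, 21 CpGs). The *Tbr1* stretch lies inside the gene and covers no start site. For *Emx1* the 250 bases upstream of the start site (chr6:85187188-85187437, plus strand) hold 8 CpGs, and for *Fezf2* the 250 bases upstream of its second start site (chr14:12345960-12346209, minus strand) hold 16, and neither overlaps a peak.
Wfs1: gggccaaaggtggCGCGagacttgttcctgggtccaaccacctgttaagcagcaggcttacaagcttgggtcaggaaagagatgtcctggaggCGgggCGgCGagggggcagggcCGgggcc
Tle4: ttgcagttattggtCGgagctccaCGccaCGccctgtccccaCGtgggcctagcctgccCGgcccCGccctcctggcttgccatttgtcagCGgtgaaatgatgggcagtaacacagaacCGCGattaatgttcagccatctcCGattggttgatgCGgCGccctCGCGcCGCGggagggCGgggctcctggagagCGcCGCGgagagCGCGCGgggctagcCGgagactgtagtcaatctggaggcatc
Cux2: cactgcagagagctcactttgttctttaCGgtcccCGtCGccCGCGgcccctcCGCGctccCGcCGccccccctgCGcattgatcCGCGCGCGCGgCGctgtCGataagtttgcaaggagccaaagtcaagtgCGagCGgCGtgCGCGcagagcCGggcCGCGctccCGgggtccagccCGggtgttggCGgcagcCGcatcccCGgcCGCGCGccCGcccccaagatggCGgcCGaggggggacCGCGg
Bcl11b: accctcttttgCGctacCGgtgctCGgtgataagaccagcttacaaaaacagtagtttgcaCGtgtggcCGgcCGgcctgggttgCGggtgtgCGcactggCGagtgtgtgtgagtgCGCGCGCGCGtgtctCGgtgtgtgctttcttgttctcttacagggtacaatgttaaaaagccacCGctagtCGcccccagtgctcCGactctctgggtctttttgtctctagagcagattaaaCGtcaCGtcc
Tbr1: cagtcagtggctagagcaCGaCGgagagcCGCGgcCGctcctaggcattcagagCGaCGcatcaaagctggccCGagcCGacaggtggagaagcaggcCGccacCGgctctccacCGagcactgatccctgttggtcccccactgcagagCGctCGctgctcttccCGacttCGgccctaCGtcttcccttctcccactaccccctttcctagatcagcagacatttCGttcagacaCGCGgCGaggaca
Emx1: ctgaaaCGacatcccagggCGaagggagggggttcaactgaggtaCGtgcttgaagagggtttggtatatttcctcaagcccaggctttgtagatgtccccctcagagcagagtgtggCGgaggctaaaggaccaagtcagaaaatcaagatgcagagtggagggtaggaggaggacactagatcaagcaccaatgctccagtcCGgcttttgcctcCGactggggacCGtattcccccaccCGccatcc
Fezf2: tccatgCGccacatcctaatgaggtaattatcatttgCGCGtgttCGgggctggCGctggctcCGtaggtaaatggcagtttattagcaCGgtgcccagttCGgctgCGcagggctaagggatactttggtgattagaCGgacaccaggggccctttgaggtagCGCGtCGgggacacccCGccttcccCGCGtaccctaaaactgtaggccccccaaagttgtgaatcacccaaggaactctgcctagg

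In these sequences, the *Fezf2* stretch without a peak held more CpGs per base (16 in 250) than the *Wfs1* stretch in its peak (6 in 122), and the *Emx1* stretch held the fewest (8 in 250). The *Cux2* stretch had the highest GC content, 74.4%, followed by *Wfs1* with 65.6% and *Tle4* with 65.2%. *Tbr1* had 63.2%, *Fezf2* 57.2%, *Bcl11b* 56.0% and *Emx1* 55.6%.

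**Figure D3:**
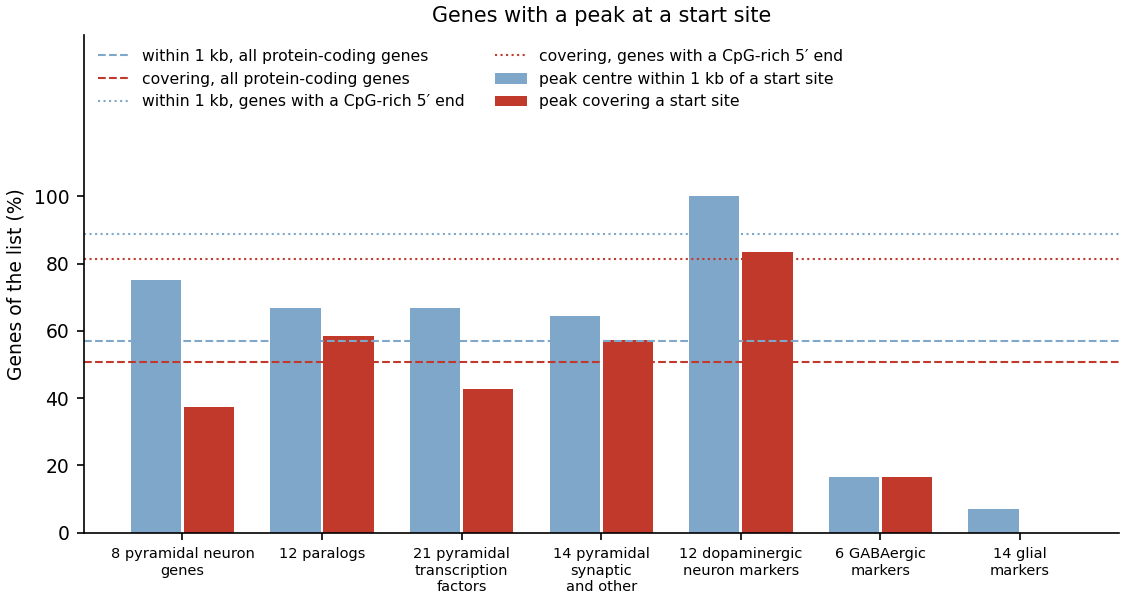
Share of genes (%) with a peak centre within 1 kb of a start site (blue) or a peak covering a start site (red) in 7 gene lists, with the shares over all protein-coding genes as dashed lines (56.9% and 50.8%) and over genes with a CpG-rich 5′ end as dotted lines (88.9% and 81.4%). The 8 genes stand above the dashed line for the first measure (75.0%) and below it for the second (37.5%).

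Which start sites count as covered depended on the annotation. RefSeq start sites were matched for 7 of the 8 genes, all but *Camk2a*. Among these 7 genes, *Wfs1*, *Tle4* and *Cux2* had a start site covered. Both RefSeq start sites of *Tle4* lay inside a peak, the downstream 1 only 4 bp from the centre of its peak and the upstream 1 129 bp from it. *Bcl11b* (822 bp to the nearest peak centre), *Tbr1* (1.29 kb), *Emx1* (28.6 kb) and *Fezf2* (41.5 kb) had no covered start site in either annotation. Over the 16450 protein-coding genes matched in RefSeq, 50.3% had a start site covered.

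Of the genes of mature pyramidal neurons, *Camk2a* encodes the alpha subunit of the calcium/calmodulin-dependent protein kinase of excitatory synapses. Its gene (ENSMUSG00000024617, chr18:60925618-60988152, plus strand) had 10 peaks, 5 of them in the body, compared with a median of 3 peaks for genes of similar length. A peak centred 55 bp upstream of the 5′ end covered its 3 start sites there, and further peaks lay 882 bp and 3.52 kb upstream. Another 3 peaks lay in introns at 11.9, 24.6 and 52.9 kb, and 1 in an exon close to the 3′ end. No peak was called at its internal start sites, 37936 and 37982 bp downstream, where the nearest peak centre was 13.3 kb away. The 5′ end of *Camk2a* is not CpG-rich, with a ratio of observed to expected CpG of 0.30, and 30.9% of genes with such a 5′ end had a peak within 1 kb of a start site. The remaining 3 peaks, 1.15 to 6.86 kb past the 3′ end, were nearer to the start site of the convergent neighbour *Slc6a7*, a transporter gene named after its values were seen, at which no start-site peak was called. The start site of *Slc6a7* is outside the window. *Arsi*, upstream of *Camk2a*, has its start site inside the window and had no start-site peak.

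*Wfs1* encodes wolframin, a protein of the endoplasmic reticulum membrane that is abundant in pyramidal cells of the hippocampus. Its gene (ENSMUSG00000039474, chr5:36966104-36989205, minus strand) had 8 peaks, of which 1, centred 128 bp inside the gene, covered both of its start sites. The other 7 were in the flanks, 1 of them 13.0 kb upstream and 6 between 1.52 and 20.2 kb past the 3′ end. The farthest 3 lay in the body of *Ppp2r2c*, a subunit gene of protein phosphatase that was named after its values were seen and that had 20 peaks in its own body. Counted over the gene body alone, *Wfs1* stood at percentile 48.9 in place of 88.4. Its rank over the wider window thus rested on peaks in the flanks.

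*Cux2*, a cut-like homeobox factor of upper-layer neurons, had the most peaks of the 8 genes. Its gene (ENSMUSG00000042589, chr5:121856366-122050102, minus strand) had 12 peaks in the body and 14 in the flanks, compared with a median of 5 for genes of similar length, of which 2.80% had as many or more. Peaks centred 82 bp upstream of the 5′ end and 2.15 kb downstream of it covered 2 of its 4 start sites, and another peak lay between them, 1.24 kb downstream. Another 3 peaks lay 4.79, 9.39 and 12.6 kb upstream. In the introns, 8 peaks were spread from 14.6 to 177.8 kb, with a stretch of 76.5 kb between neighbouring peaks that held the internal start site, 125181 bp downstream of the 5′ end. The 11 peaks past the 3′ end were nearest to the start sites of *Pheta1*, a convergent gene with its 3′ end 1.73 kb away, and of *Sh2b3*, an adaptor protein gene. When peaks within 1 kb of the start site of another protein-coding gene were left out, for these and for all genes alike, *Cux2* kept 21 of its 26 peaks, and over the gene body alone it was at percentile 89.1.

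Of the deep-layer genes, *Fezf2* encodes a zinc finger factor that specifies subcortical projection neurons of layer V. No peak was called in its body (ENSMUSG00000021743, chr14:12342094-12348189, minus strand) or within 20 kb, and the nearest peak lay 38.9 kb away, upstream of the gene. The stretch without a peak around it was 102.6 kb long, compared with a median distance of 10.7 kb between neighbouring peaks over the genome and a 95th percentile of 176.8 kb. All 3 of its start sites were without a peak.

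*Bcl11b*, also called *Ctip2*, encodes a zinc finger factor that acts downstream of *Fezf2* in the same neurons and is also found in striatal neurons. In contrast to *Fezf2*, its gene (ENSMUSG00000048251, chr12:107910403-108003602, minus strand) had 8 peaks, 5 of them in the body, compared with a median of 4 for genes of similar length. The start-site peak was centred 634 bp upstream, and another lay 2.79 kb upstream. All 5 body peaks were intronic, at 1.51, 4.66, 26.9, 51.0 and 68.4 kb, and the last peak lay 6.08 kb past the 3′ end. None of the 8 was nearer to another protein-coding gene, so *Bcl11b* was the gene with the most peaks among those whose peaks could all be assigned to it by distance and lay in no other gene.

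*Tbr1*, a T-box factor of corticothalamic neurons, had 1 peak in its body (ENSMUSG00000035033, chr2:61802930-61814114, plus strand), compared with a median of 3 for genes of similar length. The peak was centred 2.82 kb downstream of the 5′ end, overlapped an exon and lay upstream of the most downstream start site, with its centre 514 bp away. No other peak was called within 50 kb of the gene.

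*Tle4*, a Groucho-family corepressor of layer VI neurons, had 3 peaks (ENSMUSG00000024642, chr19:14448150-14598051, minus strand), compared with a median of 4 for genes of similar length. One was centred 261 bp upstream and one 834 bp downstream of the 5′ end, and the only other was intronic, at 95.7 kb. Its neighbouring peaks were thus up to 94.8 kb apart, whereas at *Bcl11b* the longest distance was 30.9 kb.

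*Emx1* is a homeobox gene of the dorsal telencephalon, expressed in the precursors of cortical pyramidal neurons, whose locus is widely used to direct recombinases to the cortex. No peak was called in its body (ENSMUSG00000033726, chr6:85187438-85204462, plus strand) or within 20 kb, and the nearest lay 27.9 kb upstream and 32.5 kb downstream. The stretch without a peak was 77.4 kb long. With 50 kb on each side, 6 peaks were counted and *Emx1* lay at percentile 59.3, so the lack of peaks covered the gene and its near flanks and not the wider region.

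**Figure D4:**
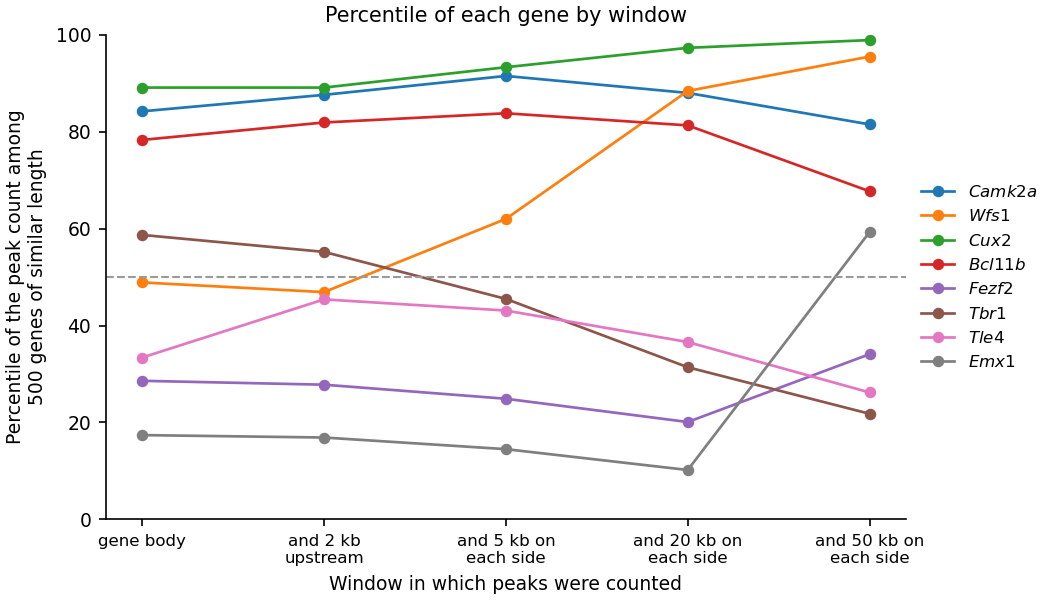
Percentile of the peak count of each of the 8 genes among 500 genes of similar length (vertical axis) when peaks were counted in the gene body alone or with flanks of increasing size (horizontal axis). *Cux2*, *Camk2a* and *Bcl11b* lie above percentile 65 in all 5 windows, *Wfs1* rises from 48.9 in the body to 95.5 with 50 kb on each side, and *Emx1* rises from 10.2 to 59.3 between 20 and 50 kb.

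The neighbourhood of each gene varied as much as the genes did. In the 1 Mb around the 5′ end, *Cux2* had 99 peaks and *Wfs1* 97, compared with a median of 30 over all genes. *Camk2a* (47 peaks), *Emx1* (46) and *Bcl11b* (44) were in regions of similar peak number, although *Emx1* had no peak of its own. *Fezf2* had 18 peaks in its 1 Mb, *Tbr1* 12 and *Tle4* 6. The 3 genes in the regions with the fewest peaks were thus among the 4 genes with the lowest percentiles, and *Emx1* was the fourth.

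Beyond position, the peaks were described by short sequence motifs, searched on both strands. Forkhead motifs (TGTTTAC or TATTTAC), which match *Foxa1* and *Foxa2* of DNs, were found in 5 of the 56 peaks (8.93%) and in 12.8% of all 55326 peaks. The *Nr4a2* motif (AAAGGTCA) was found in 1 of 56 peaks and in 4.00% of all. The motif of Otx and Pitx factors (TAATCC) was found in 10 of 56 peaks (17.9%) and in 13.6% of all, and 9 of the 10 were away from any start site. Of these 10 peaks, 7 were in the window of *Cux2*, most of them nearest to the start site of *Pheta1*. Of the 30 peaks of the other genes, 3 (10.0%) held the motif. The homeodomain motif (TAATTA) was found in 4 of 56 (7.14%) and in 7.27% of all, and the E-box of proneural factors (CAGATGG) in 5 of 56 (8.93%) and in 11.5% of all. The T-box motif (AGGTGTGA), of the kind bound by *Tbr1* itself, was found in 2 peaks and in 1.90% of all. Both were in the window of *Cux2*, one 4.79 kb upstream of it and the other within the body of *Pheta1*. AP-1 motifs (TGANTCA) were found in 6 of 56 peaks (10.7%) and in 12.3% of all, and the cyclic AMP response element (TGACGTCA) in 1 of 56 and in 1.51% of all. The CTCF consensus was found in 6 of 56 (10.7%) and in 5.24% of all. With 56 peaks from 6 genes, these counts are a description, and the median GC content of the 56 peaks was 53.8% beside 52.0% over all peaks.

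To show the distal elements, 1 peak away from start sites is printed for 4 of the 5 genes that had one, namely the peak with the most kinds of motif, taken from the gene body where possible and, where peaks tied, as 2 intronic peaks of *Cux2* did, the one nearer to the 5′ end. They are given 5′ to 3′ on the plus strand with the motif matches in capitals. The *Bcl11b* stretch (chr12:107976507-107976706) lies in an intron, 26.9 kb from the 5′ end, and holds an Otx and Pitx motif followed by a homeodomain motif. The *Tle4* stretch (chr19:14502446-14502645) lies in its intronic peak and holds an E-box. The *Cux2* stretch (chr5:122035370-122035639) lies in an intron, 14.6 kb from the 5′ end, and holds the only *Nr4a2* motif of the 56 peaks, on the minus strand, and an AP-1 motif. The *Wfs1* stretch (chr5:36946644-36946843), 19.5 kb past the 3′ end and within *Ppp2r2c*, holds 4 kinds of motif, in order CTCF, homeodomain, Otx and Pitx and forkhead, the last 2 on the minus strand.
Bcl11b: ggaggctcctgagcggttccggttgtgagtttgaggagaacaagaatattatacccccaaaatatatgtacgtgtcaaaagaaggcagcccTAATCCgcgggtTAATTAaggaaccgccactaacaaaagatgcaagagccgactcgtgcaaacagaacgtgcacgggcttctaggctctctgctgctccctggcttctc
Tle4: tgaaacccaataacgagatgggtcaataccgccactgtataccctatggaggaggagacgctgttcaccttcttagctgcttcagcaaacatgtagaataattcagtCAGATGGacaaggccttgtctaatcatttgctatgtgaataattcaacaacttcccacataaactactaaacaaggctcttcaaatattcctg
Cux2: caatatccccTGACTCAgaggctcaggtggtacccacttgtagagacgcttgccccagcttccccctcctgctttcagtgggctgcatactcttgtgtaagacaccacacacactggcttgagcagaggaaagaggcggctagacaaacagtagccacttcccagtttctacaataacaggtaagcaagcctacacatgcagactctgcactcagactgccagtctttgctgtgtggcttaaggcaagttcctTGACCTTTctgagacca
Wfs1: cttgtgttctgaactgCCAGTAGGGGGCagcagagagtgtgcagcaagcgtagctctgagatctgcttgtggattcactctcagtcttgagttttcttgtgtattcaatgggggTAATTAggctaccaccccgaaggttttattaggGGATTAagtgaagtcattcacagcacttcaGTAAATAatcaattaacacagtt

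The 12 paralogs of the 8 genes, their closest relatives by sequence, were examined for whether accessibility was shared within families. Of the calcium/calmodulin-dependent kinase genes, *Camk2b* had 26 peaks (percentile 98.6), *Camk2g* 12 (93.3) and *Camk2d* 7 (58.5), beside the 10 of *Camk2a* (88.0), and all 4 had a covered start site. Of the corepressor genes, *Tle3* had 11 peaks (92.3), *Tle2* 9 (89.7) and *Tle1* 5 (68.6), all with a covered start site, whereas *Tle4* had 3 peaks (36.6). *Cux1*, with 12 peaks (76.3), was below *Cux2*, and *Bcl11a*, with 4 (53.1), was below *Bcl11b*. Of the relatives of the telencephalic factors, *Fezf1* (18.8) and *Tbx21* (10.1) had no peak. *Emx2* had 1 peak (45.4) and *Eomes*, a T-box factor of cortical progenitors, had 2 (51.8), none of them in the gene body, and both lay near the middle of the genes of similar length. These 4 relatives all have a CpG-rich 5′ end, and none had a peak within 1 kb of a start site.

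Another 35 genes known from pyramidal neurons were divided into 21 transcription factors and 14 genes of synapses and other functions. Over all genes, 23.4% had no peak, 56.9% had a peak within 1 kb of a start site and 50.8% had a start site covered. Of the 21 factors, 3 (14.3%) had no peak, namely *Neurod6*, *Lhx2* and *Pax6*. A peak lay within 1 kb of a start site at 14 of them (66.7%) and covered one at 9 (42.9%). The median percentile of the 21 factors was 41.6. The most peaks, 10, were counted at *Foxp1*, a long gene at percentile 64.2. Of the 14 other genes, none was without a peak, 9 (64.3%) had a peak within 1 kb of a start site and 8 (57.1%) had one covered. Their median percentile was 73.8. Their counts ran from 1 peak at *Crym*, a thyroid hormone-binding protein gene, to 18 at *Cnih2*, a gene of an AMPA receptor auxiliary protein. The lists were chosen with earlier results of these data known, and the difference between their medians was not tested.

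**Figure D5:**
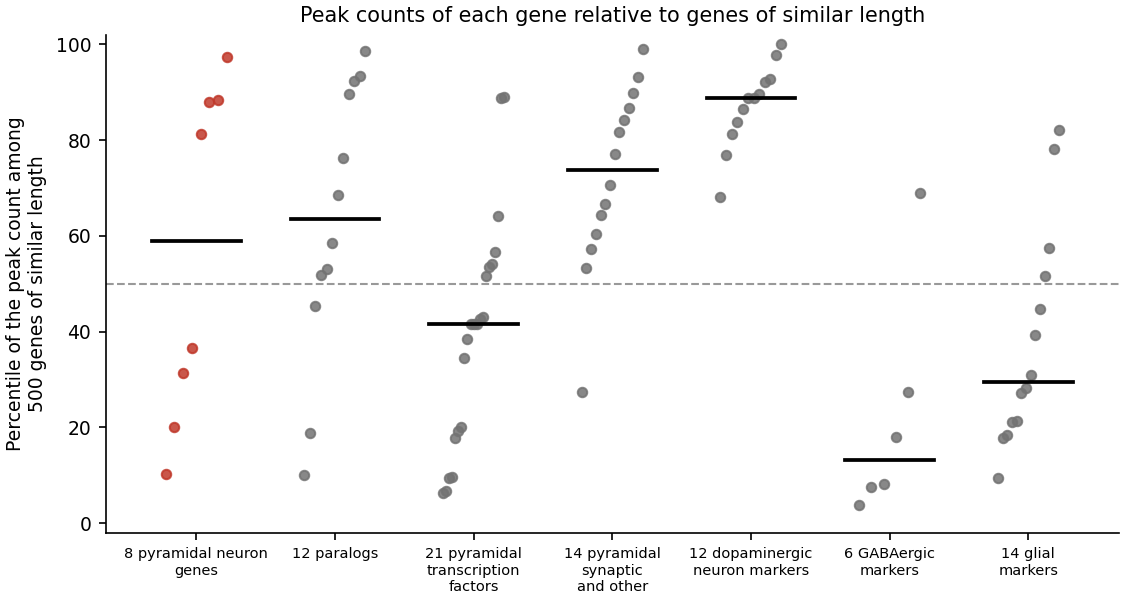
Percentile of the peak count among 500 genes of similar length (vertical axis) for each gene of 7 lists (points, sorted within a list), with the median of each list as a black line and percentile 50 dashed. The 8 genes (red) lie from 10.2 to 97.3 in this window, with a median of 58.95, and the 12 DN markers have a median of 88.75.

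The cell type of the list was set beside markers. The DN cluster had been selected by accessibility scores of such markers in the same nuclei, so their peaks are a description and not independent evidence of the cell type. All 12 markers of DNs had a peak within 1 kb of a start site, beside 56.9% of all genes. A start site was covered at 10 of them (83.3%), beside 50.8% of all genes. The 12 markers had from 4 peaks (*Pitx3*) to 44 (*Lmx1b*), with a median percentile of 88.75. Of 6 markers of midbrain GABAergic neurons, 3 had no peak (50.0%, beside 23.4% of all genes) and 1, *Slc32a1*, had a start-site peak (16.7%, beside 56.9%). Their median percentile was 13.1. Of 14 markers of oligodendrocytes, astrocytes and microglia, 3 had no peak (21.4%, beside 23.4% of all genes), 1 had a peak within 1 kb of a start site and none had a start site covered, with a median percentile of 29.55. The highest among them, *Aldh1l1* (percentile 82.1) and *Cx3cr1* (78.2), had 9 peaks each and lay in the range of the DN markers. Of the 8 PGN genes, 4 lay at or below percentile 36.6, and the other 4 lay between 81.3 and 97.3, in the range of the DN markers (68.1 to 100.0). Over the gene body alone *Wfs1*, at 48.9, lay below all 12 DN markers, the lowest of which was at 64.9. Whether nuclei of other cells contributed to the peaks of the 8 genes was not tested.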

How the data were processed

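VTA nuclei were profiled by snATAC-seq in 2 libraries. Per the paper's methods and the submitters' processing notes, the authors mapped reads to mm10 with Cell Ranger, removed doublets and clustered nuclei with ArchR after a sort on DNA content, selected the DN cluster by marker gene scores, and called peaks reproducible between pseudobulk replicates. Bowtie served the stem cell library, not analysed here. The deposited list holds start and end positions of peaks (no other unit). It is not stated whether a later filter on the share of nuclei with a peak had been applied. Starts were read as counted from 0 and printed counted from 1. Genes and start sites came from GENCODE M21 (protein-coding, basic transcripts), sequence from GRCm38.p6. Percentiles used the 500 genes nearest in log length. Counting was tested on simulated intervals. The genes named were all 8 genes, their 12 paralogs, neighbours with a start site in a window and, in other lists, those with the most and fewest peaks. *Slc6a7* and *Ppp2r2c* were added after their values were seen. The members and lists were chosen with earlier results of these data known. The result for 1 gene of a list is not reported here, and that gene is left out of its list's counts. Alternatives changed the window, overlap, reference genes and start-site distance. Python 3.11.15, pandas 2.3.3 and pysam 0.24.0 were used.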

Additional observations from a re-analysis of the deposited data

How the results depend on the processing

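The total of 56 peaks over the 8 genes was 26 in the gene body alone, 29 with 2 kb upstream and 96 with 50 kb on each side, and it stayed within 1.5 times under the other 4 alternatives (38 to 56). The median percentile of 58.95 was 53.8 in the gene body, 51.05 with 2 kb upstream, 53.75 with 5 kb and 63.5 with 50 kb on each side, and moved less under the other 6 alternatives. The number of genes above percentile 75 was 3 or 4 under all 10 alternatives. The 2 genes without a peak became 0 with 50 kb on each side, where *Fezf2* had 1 peak and *Emx1* had 6. With a distance of 500 bp, 4 of the 8 genes had a start-site peak, below the 55.1% of all genes, and 5 had one at the 5′ end alone, beside 53.5% of all genes. The number fell from 6 to 3 of 8 when the peak had to cover a start site of GENCODE. With RefSeq start sites, which also left out *Camk2a*, 3 of 7 genes had one covered. Both comparisons were added after seeing the data. *Wfs1* (46.9 to 95.5), *Emx1* (1.8 to 59.3) and *Tbr1* (21.8 to 58.7) had the widest ranges of percentile over 10 alternatives, and *Cux2* stayed between 89.1 and 98.9. No paired analysis was possible because both libraries are pooled in the peak list used here, and for the same reason no library could be left out. The list has no depth, so strong and weak peaks could not be told apart.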
